A study of Mus musculus with 6 samples.

Results

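The 9 genes described here write, remove or feed the chemistry of cytosine methylation. They are the methyltransferases Dnmt1, Dnmt3a and Dnmt3b, the Dnmt1 partner Uhrf1, the dioxygenases Tet1, Tet2 and Tet3, and the dehydrogenases Idh1 and Idh2. They were chosen by name, as 9 of the 53458 genes onto which the deposited transcript values could be summed. RNA was sequenced from leukemic blasts of mice of the strain labelled C57/BL6, with 3 libraries of the genotype Cebpa-/p30; Asxl1WT (called WT here) and 3 of the genotype Cebpa-/p30; Asxl1G643W/G643W (called G643W). Both groups thus carry the same Cebpa change, in which the myeloid factor C/EBPα is left only as its short p30 form, so no library here has normal Cebpa. The animals were transplanted and leukemic, and the blasts were sorted from their marrow by CD45.2, by little Mac1 and Gr1, and by absence of Ter119, B220 and CD3. The labels give no age and no treatment, and do not say how many primary leukemias the libraries trace to, so p-values reflect library-to-library spread alone, some of which may be technical.

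Dnmt1 copies methylation onto the new DNA strand after replication, and Uhrf1 brings it to half-methylated sites, so the pair is known for expression in dividing cells. Dnmt3a and Dnmt3b place methylation on unmarked DNA. The Tet enzymes oxidise methylcytosine with α-ketoglutarate as a co-substrate, which Idh1 makes in the cytosol and Idh2 in mitochondria. DNMT3A, TET2, IDH1 and IDH2 are among the genes recurrently mutated in human acute myeloid leukemia, as is ASXL1.

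Library totals ranged from 61144774 to 101164549 estimated reads. All 12 genes of a list of blast and progenitor markers had reads in each library, among them Mpo at 656 to 7188 CPM (read counts scaled to a fixed library total and scaled for library composition). In 2 of the 12 all G643W libraries lay below all WT libraries and in 0 above, beside 8.89% and 7.05% of all genes tested. The 2 were Cd34, at 146 to 394 CPM in WT against 29.5 to 120 in G643W, and Flt3, at 17.5 to 44.7 against 1.67 to 6.48. The gate removes T and B cells, and their markers ranged widely. Cd3e stood at up to 0.237 CPM, Cd3d at up to 3.07 and Cd4 at up to 11.1, while Nkg7 reached 131, Cd79b 20.6 to 37.5 and Ighm 182 to 513 CPM. A list of 15 neutrophil genes summed to 2449 to 55392 CPM in WT and to 10547 to 139830 CPM in G643W. The highest sums were in WT library 3 and G643W libraries 2 and 3. The list holds Itgam, the gene of Mac1, at 314 to 2213 CPM, and Ly6g, of the Gr1 antigen, at 3.71 to 347 CPM. Both were highest in those same libraries, although the gate took cells with little Mac1 and Gr1. Asxl1 itself stood at 54.5 to 86.5 CPM in WT and at 103 to 164 CPM in G643W, which does not read the altered base.

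None of the 9 genes differed between the genotypes past the threshold. All 9 passed the filter on low counts, and edgeR's quasi-likelihood test called 0 of 9 at a Benjamini-Hochberg adjusted p under 0.05, beside 0.121% of the 20654 genes tested (0.0533% higher and 0.0678% lower in G643W). At an unadjusted p under 0.05 it also called 0 of 9, beside 9.66% of all genes, and DESeq2 called 0 of 9, beside 2.07%. The members' median log2 difference, G643W minus WT, was 0.12, and that of all genes tested was -0.013, with 5 members above zero and 4 below. In 2 members, Dnmt3a and Tet3, the CPM values of all G643W libraries lay below all WT libraries, as they did in 8.89% of all genes tested. The intervals set what these libraries could have shown: the narrowest, that of Tet3, spanned folds from 0.598 to 1.12 of G643W over WT, and the widest, that of Tet1, folds from 0.278 to 2.81.

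**Figure D1:**
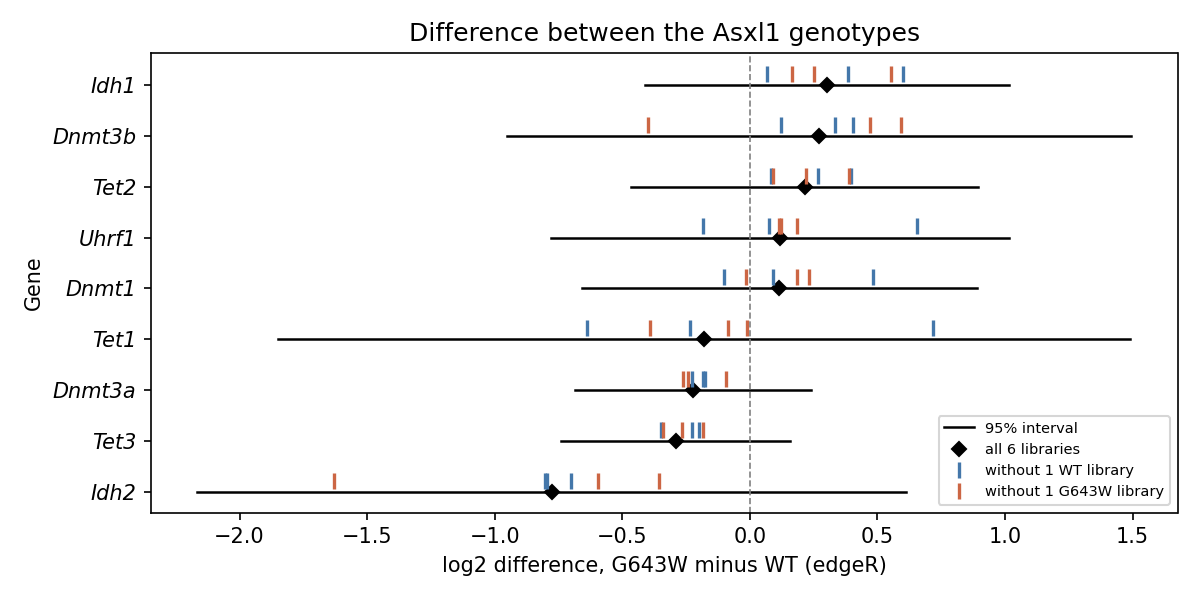
Log2 difference of each gene, G643W minus WT, from edgeR over all 6 libraries (diamonds) with its 95% interval (lines), and the difference with 1 library left out (ticks, coloured by genotype of the library). All 9 intervals cross zero, and for Dnmt1, Uhrf1, Dnmt3b and Tet1 the ticks lie on both sides of zero.

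Levels of different genes were compared in TPM, the share of all transcript copies, which takes transcript length into account. In WT the order of mean TPM (± SD, n = 3 throughout) was Idh2 at 68.4 ± 4.41, Uhrf1 at 30.4 ± 19.5, Dnmt1 at 25.0 ± 9.81, Idh1 at 21.6 ± 8.27, Dnmt3a at 17.0 ± 5.06, Tet2 at 7.50 ± 3.91, Tet3 at 3.65 ± 0.309, Dnmt3b at 0.986 ± 0.277 and Tet1 at 0.193 ± 0.0313. The order of the means was the same in G643W, from Idh2 at 40.9 ± 39.8 to Tet1 at 0.283 ± 0.232. The 3 WT libraries of Uhrf1, Dnmt1, Idh1 and Dnmt3a overlapped their neighbours in this order, while Idh2 stood above Uhrf1, and Tet2, Tet3, Dnmt3b and Tet1 stood apart from each other. In G643W Idh2 overlapped Uhrf1, and Dnmt3a overlapped Tet2. The order rested in part on short annotated transcripts, at the top as well as in the middle. For Idh2, transcripts under 600 bases held 42.5 ± 4.12% of the TPM in WT. For Dnmt3a, transcripts under 600 bases held 72.9, 72.6 and 78.3% of the TPM in WT, against 57.7, 28.3 and 77.4% of it in G643W. Of the Dnmt3a reads they held at most 12.05% in any library. Counting coding transcripts of at least 1000 coding bases alone, a choice made after the data were seen, Dnmt3a stood at 3.80 ± 0.363 TPM in WT and 3.92 ± 1.37 in G643W, overlapping Tet3 at 3.60 ± 0.261 and 3.15 ± 0.449, and Tet2 came after both at 1.29 ± 0.153 and 1.89 ± 0.391. On that scale Idh2 overlapped Uhrf1 in WT as well, at 30.5 ± 1.02 against 23.0 ± 12.4 TPM, and in G643W Idh1 was first at 26.1 ± 5.34 TPM and Idh2 came after Uhrf1 and Dnmt1 at 20.4 ± 17.7.

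**Figure D2:**
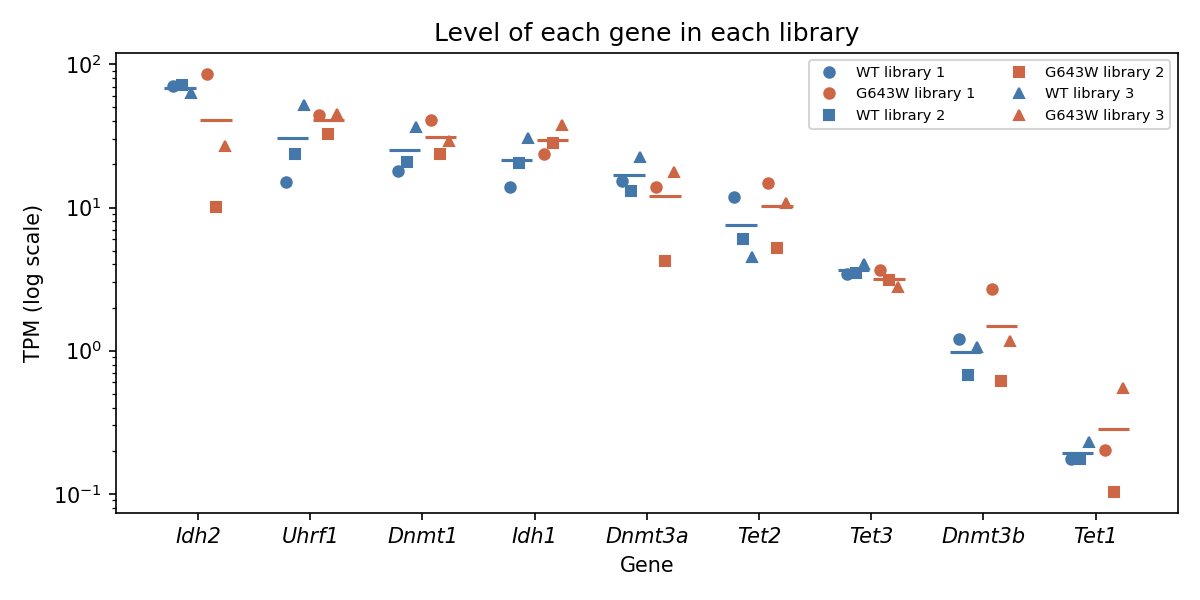
TPM of the 9 genes in each of the 6 libraries on a log scale, with horizontal lines at the mean of each genotype. The genes span from Idh2, at up to 85.8 TPM, to Tet1, at 0.103 to 0.544 TPM, and the genotypes overlap in each gene on this scale.

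Dnmt1 (ENSMUSG00000004099, GRCm38 chromosome 9, 20907209 to 20959888, minus strand) was expressed at 204, 278 and 415 CPM in WT libraries 1 to 3 and at 413, 267 and 290.3 CPM in G643W libraries 1 to 3. The lowest and the highest library were both WT, and all 3 G643W libraries lay between them. The log2 difference was 0.12 ± 0.33 (SE; 95% interval -0.66 to 0.89; edgeR adjusted p = 0.902). Uhrf1 (ENSMUSG00000001228, GRCm38 chromosome 17, 56303321 to 56323486, plus strand) stood at 101.2, 167 and 291 CPM in WT, against 225, 182 and 199.8 CPM in G643W. It ranked the libraries much as Dnmt1 did, with WT library 1 lowest and WT library 3 highest. Its log2 difference was 0.12 ± 0.38 (95% interval -0.78 to 1.01; edgeR adjusted p = 0.916).

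Both genes kept close to a list of 25 S phase genes, replication factors and nucleotide enzymes, within each library. Set against all libraries, the mean log2 CPM of the list was -0.66, -0.027 and 0.46 in WT and 0.34, -0.13 and 0.016 in G643W. WT library 1 was lowest and WT library 3 highest, as for Dnmt1 and Uhrf1. Dnmt1 lay above the list's mean by 2.04, 1.85 and 1.94 log2 units in WT and by 2.06, 1.90 and 1.87 in G643W. Across the 6 libraries this distance stayed within a range far narrower than that of Dnmt1 itself. Its mean differed between the genotypes by 0.00030 (two-sided exact permutation p = 1). For Uhrf1 the distance was 1.03, 1.12 and 1.43 in WT and 1.18, 1.34 and 1.33 in G643W, a difference of 0.093 (two-sided exact permutation p = 0.6), where 3 against 3 cannot go below p = 0.1. On the log2(TPM + 1) scale the differences were 0.11 for Dnmt1 and 0.35 for Uhrf1 (two-sided exact permutation p = 0.4 and 0.2). The match did not extend to 25 genes of G2 and mitosis. That list's mean was higher in all G643W than in all WT libraries, and Dnmt1 and Uhrf1 measured against it differed by -0.86 and -0.77 (two-sided exact permutation p = 0.3 each). edgeR called 0 of 25 genes in either list, with median log2 differences of 0.06 for S phase and 0.97 for G2 and mitosis. At an unadjusted p under 0.05 were 0 genes of the S phase list and 24 of the G2 and mitosis list, beside 9.66% of all genes, and in 22 of the latter all G643W libraries lay above all WT libraries, beside 7.05% of all genes. In bulk RNA a larger share of cycling cells and more RNA per cell cannot be told apart.

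**Figure D3:**
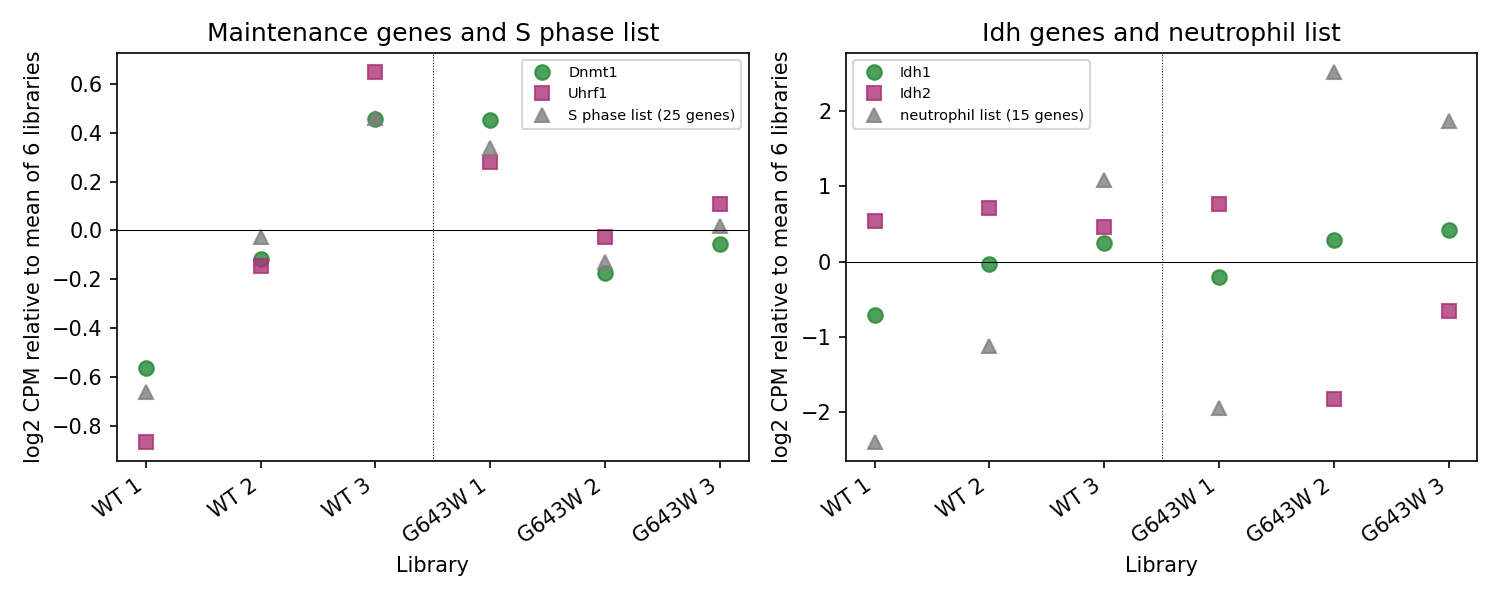
Log2 CPM of each gene relative to its mean over 6 libraries, with a list of marker genes for comparison (grey triangles). On the left Dnmt1 and Uhrf1 lie beside the S phase list in each library, lowest in WT library 1 and highest in WT library 3. On the right Idh2 is low in G643W libraries 2 and 3, which are high in neutrophil genes, but not in WT library 3.

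The RefSeq promoter windows of Dnmt1 and Uhrf1 (GRCm38.p6, 250 bases before to 50 after a start) are shown because both genes followed the S phase list, which holds many targets of E2F factors. Windows for 15 starts of the 9 genes were searched on both strands for the E2F words TTTCCCGC, TTTGGCGC, TTTGCCGC and TTTCGCGC and for CCAAT. Words of the latter kind on opposite strands may overlap each other, and no E2F word shares a base with them here. The E2F words occurred in 744 of 32851 RefSeq windows of this length (2.26%) and CCAAT in 12289 (37.4%). Among the 15 windows E2F words were found in 1 of Dnmt1, at chr9:20952574-20952873 on the minus strand, which holds 2, and in 1 of Uhrf1, at chr17:56304063-56304362 on the plus strand, which holds 1. A match is a string of letters and not a measured site. The other 2 sequences are the windows of the most-read Dnmt1 start and of the upstream Uhrf1 start, Dnmt1 chr9:20952930-20953229 (minus strand, start of Dnmt1-201) and Uhrf1 chr17:56303087-56303386 (plus strand, start of Uhrf1-201), where no E2F word was found. Capitals mark E2F and CCAAT words.
Dnmt1 window with E2F words: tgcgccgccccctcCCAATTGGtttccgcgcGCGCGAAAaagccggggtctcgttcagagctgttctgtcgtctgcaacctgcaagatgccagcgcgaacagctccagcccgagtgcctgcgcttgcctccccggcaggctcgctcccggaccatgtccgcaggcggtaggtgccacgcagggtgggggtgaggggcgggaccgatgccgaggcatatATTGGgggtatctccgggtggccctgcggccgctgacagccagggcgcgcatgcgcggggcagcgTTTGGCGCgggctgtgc
Dnmt1 window of Dnmt1-201: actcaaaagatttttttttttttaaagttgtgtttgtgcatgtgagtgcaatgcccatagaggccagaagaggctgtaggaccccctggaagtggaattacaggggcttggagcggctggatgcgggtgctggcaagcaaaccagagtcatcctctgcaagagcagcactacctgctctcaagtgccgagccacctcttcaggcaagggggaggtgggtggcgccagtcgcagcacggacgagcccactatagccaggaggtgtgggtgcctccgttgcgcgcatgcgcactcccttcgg
Uhrf1 window with an E2F word: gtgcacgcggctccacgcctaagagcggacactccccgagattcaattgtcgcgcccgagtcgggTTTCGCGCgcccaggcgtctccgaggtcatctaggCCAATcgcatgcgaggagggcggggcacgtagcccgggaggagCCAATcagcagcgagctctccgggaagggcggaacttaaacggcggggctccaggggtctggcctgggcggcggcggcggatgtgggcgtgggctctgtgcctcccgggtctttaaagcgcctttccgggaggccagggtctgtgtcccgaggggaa
Uhrf1 window of Uhrf1-201: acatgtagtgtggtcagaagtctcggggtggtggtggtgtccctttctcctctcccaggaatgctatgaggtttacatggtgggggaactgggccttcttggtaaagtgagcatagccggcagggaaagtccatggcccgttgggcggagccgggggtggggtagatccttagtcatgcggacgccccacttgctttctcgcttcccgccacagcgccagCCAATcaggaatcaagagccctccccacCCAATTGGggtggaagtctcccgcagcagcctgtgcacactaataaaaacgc

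The shares of the annotated coding forms and start regions of both genes overlapped between the genotypes. Dnmt1-201, of 1620 codons, held 78.4 ± 3.28% of the TPM of the full coding forms in WT and 78.9 ± 0.995% in G643W, and forms of 1501 codons held the rest. Dnmt1-203, which begins in the window with 2 E2F words, was assigned 1.13 to 3.79 CPM in WT and 2.24 to 5.62 CPM in G643W, against 161 to 314 CPM for Dnmt1-201. As a share of the whole gene's TPM, Dnmt1-201 held 64.2, 72.1 and 63.8% in WT and 62.4, 62.4 and 59.9% in G643W, without overlap. The difference of -5.15 points (two-sided exact permutation p = 0.1, adjusted p = 0.3 over the 9 genes) was -0.079 points as a share of reads. A processed transcript of Dnmt1, of 607 bases, stood at 0.150, 0 and 1.98 CPM in WT, against 3.82, 3.26 and 3.95 CPM in G643W. All G643W libraries lay above all WT libraries, with a log2 difference of 2.37 ± 1.61 (edgeR adjusted p = 0.770 over all transcripts). Of all transcripts tested, 7.6% lay without overlap in that direction. For Uhrf1 the upstream start region, where Uhrf1-201 and, just past its window, Uhrf1-203 begin, held 57.0, 72.6 and 68.2% of the TPM of the coding forms in WT and 73.2, 57.8 and 62.9% in G643W. The downstream start region, of Uhrf1-202 and Uhrf1-204, held the rest and has the E2F word before it. The genotypes overlapped for these shares of Uhrf1.

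One Uhrf1 transcript was singled out after its values were seen. Uhrf1-202, of 774 codons, stood at 3.29, 3.07 and 2.32 CPM in WT, against 5.55, 14.5 and 8.996 CPM in G643W, with all G643W libraries above all WT libraries. Its log2 difference was 1.74 ± 0.42, with an unadjusted p of 0.00572 and an adjusted p of 0.497 by edgeR's quasi-likelihood test over 58839 transcripts. DESeq2 gave an adjusted p of 0.0195 and called it, beside 1.78% of all transcripts tested and 0.731% in that direction. Over its 9 alternative fits the adjusted p ranged from 0.0195 to 0.916. Uhrf1-202 begins close to Uhrf1-204, which stood at 40.2, 41.1 and 84.6 CPM in WT, against 50.35, 56.4 and 56.5 in G643W. How the reads were split between such near-identical transcripts is an estimate, and its error is not part of the test. In TPM the leading transcript Uhrf1-203 held 44.1, 50.9 and 44.0% of the gene in WT and 42.8, 30.5 and 28.1% in G643W, without overlap. The difference of -12.5 points had a two-sided exact permutation p of 0.1, the smallest possible, and an adjusted p of 0.3 over the 9 genes. As a share of reads the difference was -7.00 points. Uhrf1 transcripts under 600 bases held 10.4, 14.2 and 26.1% of the gene's TPM in WT, against 26.7, 32.5 and 39.7% in G643W, also without overlap. Of its reads they held 0.694, 0.969 and 2.53% in WT, against 2.61, 3.85 and 5.49% in G643W. Among them Uhrf1-207, of 529 bases, held a mean of 3.08% of the TPM in WT and 18.9% in G643W. The TPM share of Uhrf1-203 thus depended in part on short annotated transcripts.

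Of the 2 enzymes that place new methylation, Dnmt3a (ENSMUSG00000020661, GRCm38 chromosome 12, 3806007 to 3914443, plus strand) varied less in WT in CPM, but not in TPM relative to its mean. It stood at 74.6, 75.2 and 73.3 CPM in WT, against 72.4, 51.6 and 66.9 CPM in G643W. All G643W values lay below the WT values, the highest of them by a small gap, and G643W library 2 was lowest. The log2 difference was -0.22 ± 0.20 (95% interval -0.69 to 0.24; edgeR adjusted p = 0.666). Without the composition scaling of the libraries the genotypes overlapped, as they did in TPM. The long form of Dnmt3a (908 codons, Dnmt3a-201 and Dnmt3a-218) held 82.9, 77.7 and 64.7% of the TPM of its full coding forms in WT and 54.0, 74.6 and 81.9% in G643W. The short form (689 codons), which begins at an internal start and is best known from embryonic stem cells, held the rest and was highest in G643W library 1, at 46.0%. The genotypes overlapped for both forms.

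Dnmt3b (ENSMUSG00000027478) was low and its value turned on 1 library. It stood at 10.4, 6.81 and 9.20 CPM in WT, against 19.2, 5.26 and 7.40 CPM in G643W. G643W library 1 was the highest of the 6 and G643W library 2 the lowest. The log2 difference was 0.27 ± 0.52 (95% interval -0.95 to 1.49; edgeR adjusted p = 0.849), and without G643W library 1 it was -0.40. Dnmt3b lies 245 kb downstream of Asxl1 on chromosome 2 (153649450 to 153687730, GRCm38, plus strand), so it is genetically linked to the altered allele. The part of that position in its level was not tested.

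The form of Dnmt3b assigned most reads was not the longest one. Transcripts of 776 codons (Dnmt3b-205 and Dnmt3b-206) held 68.9, 78.4 and 60.7% of the TPM of the expressed coding forms in WT and 76.3, 68.9 and 70.8% in G643W. They led in all 6 libraries over the form of 860 codons, at 31.1, 21.6 and 27.5% in WT and 23.7, 31.1 and 29.2% in G643W. A form of 839 codons was listed above 0 in WT library 3 alone. These shares rest on 307 to 1004 estimated reads of the shorter and 111 to 293 of the longer form per library. The shorter form lacks 3 coding exons of Dnmt3b-201 in full: exon 11 of 60 bases, exon 22 of 70 bases and exon 23 of 119 bases, and exon 17 differs in part. Exons 22 and 23 encode part of the catalytic domain. They are printed because their presence is what separates the forms (GENCODE M21 on GRCm38, plus strand).
Dnmt3b exon 22, chr2:153683608-153683677: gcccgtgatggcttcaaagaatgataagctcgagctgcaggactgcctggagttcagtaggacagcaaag
Dnmt3b exon 23, chr2:153684359-153684477: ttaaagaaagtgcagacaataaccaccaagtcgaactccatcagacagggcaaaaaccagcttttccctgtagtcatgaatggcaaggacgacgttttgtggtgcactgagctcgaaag

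**Figure D4:**
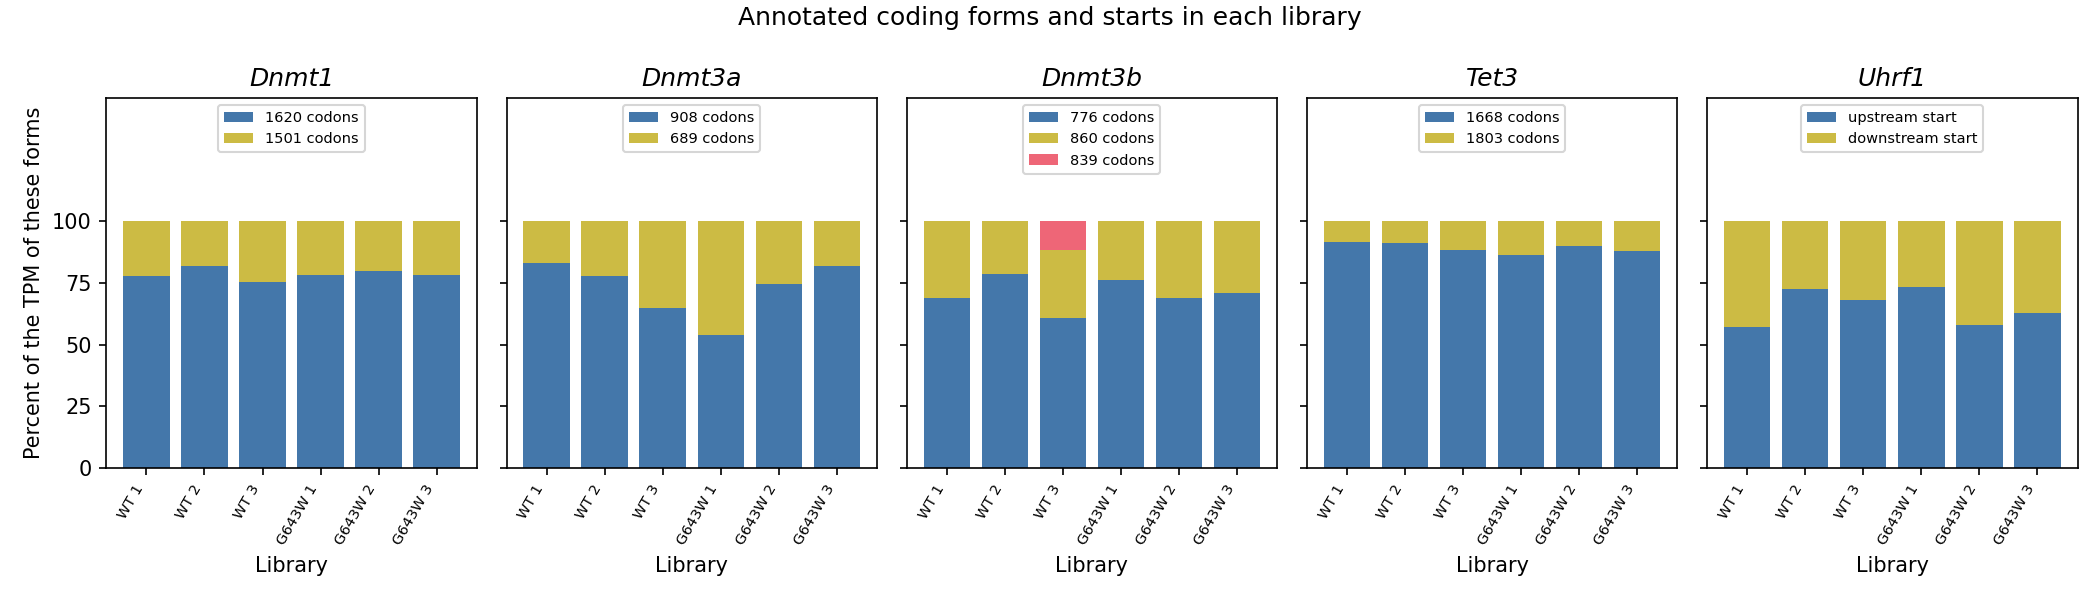
Share of each annotated coding form, or of each start for Uhrf1, in the TPM of these forms in each library. The 776-codon form of Dnmt3b leads in all 6 libraries, the long form of Dnmt3a ranges from 54.0 to 82.9%, and the genotypes overlap in each panel.

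Among the Tet genes, Tet3 (ENSMUSG00000034832, GRCm38 chromosome 6, 83362373 to 83459084, minus strand) had the lowest unadjusted p of the 9 members, 0.170. It stood at 81.9, 92.1 and 91.9 CPM in WT, against 78.8, 77.4 and 61.1 CPM in G643W. All G643W values lay below all WT values, and G643W library 3 was lowest. The log2 difference was -0.29 ± 0.19 (95% interval -0.74 to 0.16; edgeR adjusted p = 0.590), and the genotypes overlapped without composition scaling and in TPM. Most reads went to Tet3-202, of 1668 codons, at 79.8, 88.0 and 84.2 CPM in WT, against 70.7, 71.7 and 54.6 in G643W, with a log2 difference of -0.36 ± 0.19 (edgeR adjusted p = 0.732). The longer Tet3-203, of 1803 codons, stood at 4.76, 5.27 and 7.04 CPM in WT, against 7.10, 5.02 and 4.71 in G643W. In CPM the longer form thus overlapped between the genotypes, and Tet3-202 did not. In TPM Tet3-202 overlapped as well, at 3.12, 3.18 and 3.44 in WT, against 3.13, 2.76 and 2.41 in G643W. Its share of the TPM of the coding forms also overlapped. The 5 protein-coding genes whose pattern over the 6 libraries was closest to that of Tet3, out of 7362 with a mean of at least 5 TPM, were Gpat4, Spsb3, Snf8, Btbd2 and Cox8a, with root mean square log2 differences of 0.0552 to 0.0676.

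Tet2 (ENSMUSG00000040943, GRCm38 chromosome 3, 133463679 to 133545139, minus strand) stood at 62.0, 51.3 and 36.2 CPM in WT, against 73.3, 42.9 and 57.2 CPM in G643W. WT library 3 was lowest and the genotypes overlapped, with a log2 difference of 0.21 ± 0.29 (95% interval -0.47 to 0.89; edgeR adjusted p = 0.778). The gene total mixes 2 kinds of transcript. Transcripts annotated as retained introns or processed transcripts, which encode no enzyme, held 54.9, 48.0 and 41.0% of the Tet2 reads in WT and 43.0, 29.4 and 38.7% in G643W. Over all protein-coding genes that share was 8.73 to 10.9% per library. The only long coding transcript with reads in all libraries, Tet2-201 of 1912 codons, stood at 27.9, 25.9 and 21.2 CPM in WT, against 39.3, 29.9 and 32.5 CPM in G643W. All G643W values lay above all WT values. Its log2 difference was 0.44 ± 0.21 (edgeR adjusted p = 0.723 over all transcripts), and the adjusted p ranged from 0.506 to 1.00 over 9 alternatives. The non-coding transcripts together stood at 35.3, 25.0 and 14.8 CPM in WT, against 31.4, 12.5 and 21.6 in G643W, and overlapped.

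**Figure D5:**
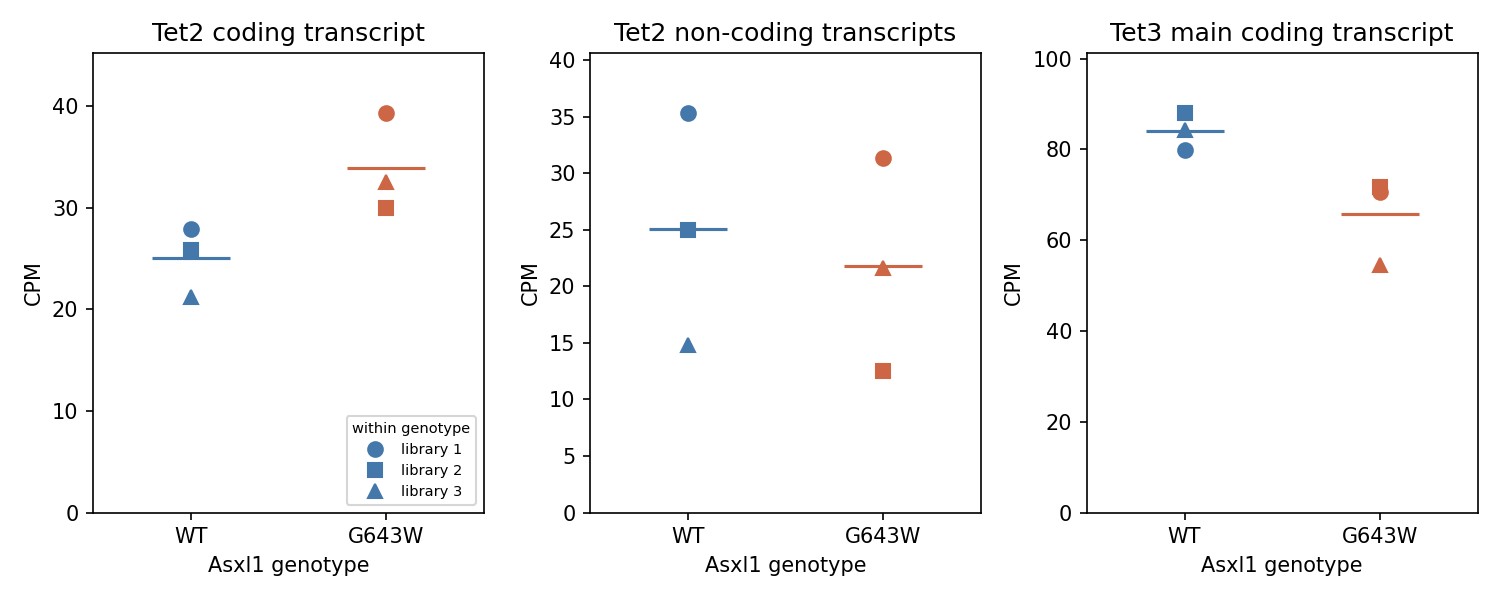
CPM of the coding transcript Tet2-201, of all Tet2 transcripts annotated as retained introns or processed transcripts, and of Tet3-202, by genotype, with 1 point per library and a line at the mean. On this scale Tet2-201 is higher and Tet3-202 lower in each G643W library than in each WT library, and the non-coding Tet2 transcripts overlap. In TPM Tet3-202 overlaps between the genotypes.

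Tet1 (ENSMUSG00000047146, GRCm38 chromosome 10, 62804570 to 62908996, minus strand) was near the limit of detection. It had 23, 73 and 166 estimated reads in WT and 62, 80.0 and 98 in G643W, or 0.302, 1.03 and 2.20 CPM against 0.906, 0.899 and 1.32 CPM. WT libraries were both the lowest and the highest. The log2 difference was -0.18 ± 0.71 (95% interval -1.85 to 1.49; edgeR adjusted p = 0.934), and it was positive with length-scaled counts and in TPM. The reads were divided among annotated forms, with Tet1-201, of 2007 codons, read in 4 libraries and Tet1-206, of 2039 codons, in the other two.

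Over all 83 annotated transcripts of the 9 genes, 47 passed the filter. edgeR called 0 of 47 at an adjusted p under 0.05, beside 0.0085% of all transcripts tested. At an unadjusted p under 0.05 it called 1, Uhrf1-202, beside 7.15%, and DESeq2 also called 1. Without overlap between the genotypes were 5 transcripts that lay above in G643W and 6 that lay below, beside 16.3% of all transcripts in either direction and 7.6% above.

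The 2 Idh genes had different patterns over the libraries. Idh1 (ENSMUSG00000025950, GRCm38 chromosome 1, 65158616 to 65186500, minus strand) stood at 53.9, 86.5 and 105 CPM in WT, against 76.5, 108 and 118 CPM in G643W. WT library 1 was lowest, and the genotypes overlapped, with a log2 difference of 0.30 ± 0.30 (95% interval -0.41 to 1.01; edgeR adjusted p = 0.703). Idh2 (ENSMUSG00000030541, GRCm38 chromosome 7, 80094846 to 80115392, minus strand) stood at 145, 163 and 137 CPM in WT, against 169, 27.7 and 63.0 CPM in G643W. G643W library 1 was the highest of all 6, while G643W libraries 2 and 3 were far below every other library. The log2 difference was -0.78 ± 0.59 (95% interval -2.17 to 0.61; edgeR adjusted p = 0.627), and without G643W library 1 it was -1.63 (adjusted p = 0.132). The TPM of Idh2 over that of Idh1 was 5.01, 3.52 and 2.09 in WT and 3.65, 0.360 and 0.712 in G643W, so Idh2 exceeded Idh1 in 4 libraries and was below it in G643W libraries 2 and 3.

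The low level of Idh2 in these 2 libraries held for its coding and its other transcripts. Idh2-201, the coding transcript of 452 codons, stood at 121, 133 and 109.6 CPM in WT, against 139, 24.4 and 51.3 CPM in G643W, and the retained-intron transcript Idh2-206 at 10.5, 12.4 and 8.92 CPM in WT, against 11.2, 2.13 and 3.93 CPM in G643W. Both were lowest in G643W libraries 2 and 3. As a share of the gene's TPM Idh2-201 was 43.6, 43.9 and 46.5% in WT and 46.8, 60.6 and 56.0% in G643W (two-sided exact permutation p = 0.1, adjusted p = 0.3 over 9 genes). The difference was 9.84 points of TPM and 4.51 points of reads. The same 2 libraries were the highest in neutrophil genes, with a mean log2 CPM of the 15 genes, relative to all libraries, of 2.53 and 1.87, against -1.95 in G643W library 1. WT library 3, at 1.08, was also high in neutrophil genes, with Idh2 at 137 CPM. The part of the neutrophil genes in the level of Idh2 was not tested.

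Genes that work with the 9 members were read from 5 lists with 79 members in all, of which 76 were tested. At an adjusted p under 0.05 edgeR called 0 of 76 and DESeq2 called 1, beside 0.121% and 2.07% of all genes. At an unadjusted p under 0.05 edgeR called 7, beside 9.66%. The median log2 difference of the 76 was -0.21, with 56 below zero and 20 above, beside -0.013 for all genes tested. In 4 of them all G643W libraries lay above all WT libraries and in 8 below, beside 7.05% and 8.89% of all genes. In every list but that of maintenance partners, G643W libraries 2 and 3, where Idh2 was low, were the lowest 2. For 16 genes that supply S-adenosylmethionine, the methyl donor, the mean relative log2 CPM was 0.019, 0.31 and 0.24 in WT. In G643W it was 0.31, -0.69 and -0.19. For 19 genes of α-ketoglutarate metabolism it was 0.0082, 0.50 and 0.22 in WT and 0.012, -0.46 and -0.27 in G643W. For 16 tested Tet partners and repair genes it was 0.0099, 0.094 and 0.17 in WT and 0.12, -0.30 and -0.0996 in G643W. For 12 genes listed as methylation readers it was 0.099, 0.20 and 0.051 in WT and -0.027, -0.15 and -0.17 in G643W. Among maintenance partners WT library 1 was lowest, at -0.37.

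The lowest unadjusted p among these genes belonged to Bcat1, which transfers amino groups between branched-chain amino acids and α-ketoglutarate. Bcat1 stood at 1.45, 10.4 and 8.33 CPM in WT, against 0.322, 0.112 and 0.620 CPM in G643W. All G643W libraries were below all WT libraries. Its log2 difference was -4.26 ± 0.96 (edgeR adjusted p = 0.373), and the adjusted p ranged from 7.39e-05, with DESeq2, to 0.921 over 16 alternatives. Marker lists of other cells moved in both directions. A list of 13 dendritic cell genes summed to 1261 to 2170.3 CPM in WT and to 185 to 277 CPM in G643W. In 10 of the 13 all G643W libraries were lower, beside 8.89% of all genes, and edgeR called 4 lower, beside 0.0678%. These 4 were H2-Eb1, H2-Ab1, H2-Aa and Cd74, all of MHC class II presentation. Cd74 alone stood at 696 to 964 CPM in WT. The genotypes overlapped for Xcr1, Zbtb46 and Clec9a, with log2 differences of 0.20, -0.13 and -0.74. The dendritic list thus moved largely through its class II genes. A list of 14 monocyte and macrophage genes summed to 4684 to 5697 CPM in WT and to 2998 to 4022 CPM in G643W. Of these 14 edgeR called 0. The median log2 difference was 1.64 for 15 neutrophil genes and 1.25 for 8 tested erythroid genes, all of them above zero. All G643W libraries lay above all WT libraries in 0 of the 15 and in 5 of the 8, beside 7.05% of all genes. The 5 were low: Hbb-bs reached 10.6 CPM at most, Hba-a2 7.76, Hba-a1 2.18, Gata1 1.94 and Alas2 0.458. Tfrc, the erythroid list member at 55.5 to 198 CPM, overlapped between the genotypes. The part of the marker lists in the level of Bcat1 was not tested. Glud1, which turns glutamate into α-ketoglutarate, stood at 648, 543 and 352 CPM in WT, against 263, 359 and 259.9 CPM in G643W, with a log2 difference of -0.81 ± 0.30 (edgeR adjusted p = 0.498).

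Of the Tet partners and the base excision repair genes that finish demethylation, Neil3 and Polb had the lowest p. Neil3, a DNA glycosylase, stood at 23.8, 37.4 and 59.7 CPM in WT, against 83.6, 122 and 92.0 CPM in G643W, with all G643W libraries above. Its log2 difference was 1.30 ± 0.36 (edgeR adjusted p = 0.454), and G2 and mitosis genes, as given above, were also higher in all G643W libraries. Polb, the repair polymerase, stood at 42.2, 38.3 and 27.7 CPM in WT, against 25.8, 23.1 and 24.4 CPM in G643W, with all G643W libraries below (log2 difference -0.56 ± 0.23, edgeR adjusted p = 0.507).

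Among 13 tested partners of maintenance methylation, Hdac1, a histone deacetylase bound by Dnmt1, had a log2 difference of 0.53 ± 0.21 (edgeR adjusted p = 0.510), and Ehmt2, the histone H3 lysine methyltransferase G9a, one of -0.66 ± 0.28 (adjusted p = 0.516). A list of 12 genes drawn up for methylation readers also holds some not known to bind methylated DNA. In it Zbtb4 had -1.98 ± 0.72 (edgeR adjusted p = 0.493) and Mbd3, a subunit of the NuRD complex, -0.43 ± 0.21 (adjusted p = 0.537). These 12 genes summed to 679, 701 and 697 CPM in WT and to 623, 655 and 602 CPM in G643W. Each G643W sum was below each WT sum. Among the genes supplying S-adenosylmethionine, Mat2b and Mat2a, subunits of the enzyme that makes it, had -0.47 ± 0.23 and -0.56 ± 0.34 (edgeR adjusted p = 0.537 and 0.574). None of these 6 genes passed the threshold, and their genotypes did not overlap for Hdac1 and Mat2b alone.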

How the data were processed

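The members and gene lists were chosen with earlier results of these data known. The authors deposited 1 table per library with estimated counts of reads per transcript and TPM values, per the file headers. The submitters' processing notes name bcl2fastq, Salmon 0.12.0 and the builds GRCm38.p6 and mm10. Salmon's options, index and strand setting were not given in the sources used here, and reads of overlapping antisense genes cannot be told apart. Genes overlapping a member held at most 0.528 CPM (0.491 on the opposite strand), and the Uhrf1 pseudogene Gm5648 at most 0.146.

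Of 136288 transcripts, 136176 matched GENCODE M21, and the other 112 (up to 0.0365% of reads) were dropped. Estimated counts were summed per gene, rounded, filtered by filterByExpr (minimum count 10), TMM-scaled and fitted by edgeR 4.0.16 in R 4.3.3 (glmQLFit and glmQLFTest, genotype only, two-sided). The same was done per transcript. Benjamini-Hochberg adjustment covered all 20654 genes or 58839 transcripts, and the threshold was 0.05. CPM values use the TMM factors, and log2 CPM relative to lists uses an offset of 0.5. The procedure was run on simulated counts with 1 fixed spread for all genes, lower than the spread fitted to these libraries. That run does not show which differences could be found at the spread of these data. Alternatives were other scaling and filters, DESeq2 1.42.0, limma 3.58.1 on log2(TPM + 1) and log2(TPM + 0.1), a replicate block and each library left out.

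The rule named all 9 members, transcripts with at least 10% of a gene's TPM in either genotype, the 2 list members with the lowest unadjusted p where none passed, and for the member with the lowest p the 5 protein-coding genes closest in pattern. Each library counted as 1 sample.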

Additional observations from a re-analysis of the deposited data

How the results depend on the processing

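Each of the 9 genes was refitted under 16 alternatives. None of the 144 fits gave an adjusted p under 0.05 (range 0.132 to 0.996), and 9 turned the direction. Tet1 turned to 0.46 with length-scaled counts, 0.0898 and 0.22 with limma on log2(TPM + 1) and log2(TPM + 0.1), and 0.18 with the replicate block. Leaving out 1 library each, log2 differences ranged from -0.10 to 0.48 for Dnmt1, -0.18 to 0.66 for Uhrf1, -0.40 to 0.59 for Dnmt3b, -0.64 to 0.72 for Tet1, -1.63 to -0.36 for Idh2, 0.069 to 0.60 for Idh1, 0.081 to 0.40 for Tet2, -0.26 to -0.094 for Dnmt3a and -0.35 to -0.18 for Tet3. WT library 1 turned Dnmt1 and Uhrf1, WT library 3 turned Tet1, and G643W library 1 turned Dnmt1 and Dnmt3b. The cause was not tested.

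The distance of Dnmt1 from the S phase list differed by -0.058 to 0.048 with 1 library left out, and that of Uhrf1 by 0.012 to 0.21. With log2(TPM + 1) these were 0.11 and 0.35. Against the G2 and mitosis list they were -0.86 and -0.77. The leading transcript's share differed by -1.99 to 14.9 points for Dnmt3a, -32.3 to 2.29 for Tet1 and -2.82 to 4.40 for Tet2. As a share of reads it was -7.00 points for Uhrf1, 4.51 for Idh2, -0.079 for Dnmt1 and 10.2 for Tet2. Members without overlap fell from 2 to 0 with no scaling factor and in TPM. Pathway genes called rose from 0 to 1, Bcat1, without the filter and with DESeq2, and member transcripts called from 0 to 1, Uhrf1-202, with DESeq2. In the order of levels 5 of 9 genes kept their rank in WT and 5 in G643W by reads per kilobase, and 5 in G643W by coding transcripts alone.

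Libraries with the same number in both genotypes had correlations of their deviations of 0.10, -0.24 and 0.20, so the numbers were not taken to pair them. With the replicate block 0 members, 0 pathway genes and 0 member transcripts were called, and the log2 differences were 0.15 for Dnmt1, -0.24 for Dnmt3a, 0.06 for Dnmt3b, 0.24 for Uhrf1, 0.21 for Tet2, -0.30 for Tet3, 0.33 for Idh1 and -1.15 for Idh2. Tet1 rests on 23 to 166 reads per library, and counting error was not separated from spread between libraries.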
